A study of Homo sapiens with 12 samples.

Results

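The expression of 10 genes was analysed by RNA sequencing in prostate cancer cells with altered GALNT7. They encode enzymes and core subunits of DNA methylation and of Polycomb repressive complex 2 (PRC2). GALNT7 is a Golgi enzyme of O-linked glycosylation that adds the sugar N-acetylgalactosamine to proteins that already carry it. The genes are DNMT1, UHRF1, DNMT3A, DNMT3B, TET1, TET2, TET3, EZH2, EED and SUZ12. They were chosen by name, with earlier results of these data known. Each of the 10 was matched to its Ensembl identifier among the 59424 genes listed in the deposited tables. CWR22RV1 cells, a prostate cancer line, carried either a lentiviral control hairpin (shControl) or a lentiviral hairpin that depletes GALNT7 (GALNT7 KD). DU145 cells, another prostate cancer line, carried either a lentiviral open reading frame control (OE control) or lentiviral GALNT7 (GALNT7 OE). There were 4 groups of 3 biological replicates, 12 libraries in all. The lines were made by stable transduction, and whether the replicates came from separate transductions was not given in the sources used here, so the p-values measure the spread between these cultures only. RNA levels were measured and neither DNA methylation nor histone marks were.

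DNA methyltransferases place methyl groups on the cytosine of CpG pairs. DNMT1 copies the pattern onto new DNA after replication, brought there by UHRF1, while DNMT3A and DNMT3B can methylate sites that were unmethylated, and the TET enzymes oxidise the methyl group and so open the way to its removal. PRC2 places methyl groups on lysine 27 of histone H3, a mark of silent genes, with EZH2 as the catalytic subunit and EED and SUZ12 as the subunits it needs to work. EZH2 and UHRF1 are known for high expression in aggressive prostate cancer, and DNMT1, UHRF1 and EZH2 are also known to be most abundant in dividing cells.

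In DU145 cells that overexpressed GALNT7, 8 of the 10 genes rose and none fell, whereas in CWR22RV1 cells depleted of GALNT7 none of the 10 passed the test. UHRF1 rose most, from a mean normalised count of 1245 to 3419, followed by EZH2 from 899 to 1695 and DNMT1 from 4097 to 7303. DNMT3A and TET2 were the 2 genes that did not pass in DU145 cells. These counts are read against a background in which 43.5% of all genes tested passed the threshold in DU145 cells, 22.9% of them higher and 20.5% lower, and 9.06% passed in CWR22RV1 cells. A gene was called when its limma p-value, adjusted over all genes tested by the Benjamini-Hochberg method, was under 0.05. Fold changes are differences of log2(normalised count + 1) between the means of 3 treated and 3 control libraries, so a value of 1 is a doubling. In bulk samples of this kind fewer cells of a type and less RNA per cell cannot be told apart.

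The stretches of DNA around the starts of 4 of the genes are shown because the 3 largest rises (UHRF1, EZH2 and DNMT1) can then be set beside DNMT3A, which did not pass the test in DU145 cells. Each runs 5′ to 3′ on the gene's own strand, from 250 bases before to 50 bases after the first start that RefSeq lists (build GRCh38.p14). Capitals mark matches, on either strand, to TTTGGCGC, TTTCGCGC, TTTCCCGC or TTTGCCGC, letters of the kind bound by E2F factors, which act on genes of DNA replication.
UHRF1, chr19:4909251-4909550, plus strand: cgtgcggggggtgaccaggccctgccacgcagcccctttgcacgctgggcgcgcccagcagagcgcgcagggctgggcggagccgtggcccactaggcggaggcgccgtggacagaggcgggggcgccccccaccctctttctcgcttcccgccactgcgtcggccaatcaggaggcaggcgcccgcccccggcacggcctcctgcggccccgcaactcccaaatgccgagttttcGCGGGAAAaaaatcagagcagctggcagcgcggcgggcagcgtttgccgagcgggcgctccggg
EZH2, chr7:148884242-148884541, minus strand: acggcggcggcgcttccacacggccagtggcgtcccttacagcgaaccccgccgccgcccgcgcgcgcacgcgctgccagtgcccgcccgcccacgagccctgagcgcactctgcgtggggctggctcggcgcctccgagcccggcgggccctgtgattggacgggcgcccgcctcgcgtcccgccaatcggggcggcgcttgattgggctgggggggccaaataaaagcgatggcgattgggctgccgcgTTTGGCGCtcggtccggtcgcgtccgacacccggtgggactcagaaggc
DNMT1, chr19:10194904-10195203, minus strand: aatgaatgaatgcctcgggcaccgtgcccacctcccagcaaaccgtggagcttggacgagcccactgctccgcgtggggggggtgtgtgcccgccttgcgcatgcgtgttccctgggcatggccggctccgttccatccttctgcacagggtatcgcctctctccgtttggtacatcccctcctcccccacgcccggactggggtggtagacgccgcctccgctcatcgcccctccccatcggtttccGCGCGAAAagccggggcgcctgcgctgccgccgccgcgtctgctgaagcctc
DNMT3A, chr2:25342434-25342733, minus strand: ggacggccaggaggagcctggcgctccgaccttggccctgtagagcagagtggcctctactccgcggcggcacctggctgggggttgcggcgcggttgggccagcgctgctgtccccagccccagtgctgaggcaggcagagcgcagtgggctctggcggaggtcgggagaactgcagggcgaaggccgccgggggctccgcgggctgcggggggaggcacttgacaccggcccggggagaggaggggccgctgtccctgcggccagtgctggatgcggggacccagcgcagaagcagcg

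The match in UHRF1 began at position -14, that in EZH2 at position 1 and that in DNMT1 at position -2, counted from 0 at the start. SUZ12 held a match further upstream, at position -189. None was held by DNMT3A and TET2, which did not pass in DU145 cells, nor by DNMT3B, TET1, TET3 and EED, which rose there, so 4 of the 8 genes that rose held a match and 4 did not. These letters were thus found in 4 of the 10 windows, and 3.33% of the 27305 RefSeq windows of 300 bases hold them. The pentamer CCAAT, on either strand, was found in 5 of the 10 windows and in 35.7% of all windows. A match to TTTGAA or TTCGAA, letters found in promoters of mitotic genes, was found in 2 of the 10 and in 16.6% of all windows. The windows held between 3 (DNMT3B) and 46 (EZH2) CG pairs, beside a median of 14 over all windows. These counts are for the first listed start. For DNMT3B that start (32779852) lies inside the gene span of 32762385 to 32809356 and not at its 5′ end. The same holds for UHRF1 (4909501) and DNMT1 (10194953), whose spans are given below. The 3 CG pairs and the missing match of DNMT3B describe that inner window only. RefSeq lists 3 starts for UHRF1, 2 for EZH2, 6 for DNMT3A and 1 for DNMT1, and of the other windows of the 10 genes 1, at UHRF1, held a match to the E2F letters. A match is a description of letters and not evidence that a factor binds there.

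The libraries held between 18364512 and 24356910 recovered reads. GALNT7 itself was 999 ± 122 (SD, n = 3) normalised counts in shControl and 461 ± 53.7 in GALNT7 KD libraries, -1.11 on the log2 scale (limma, adjusted p = 0.0051). It was 964 ± 75.8 in OE control and 2181 ± 176 in GALNT7 OE libraries, 1.18 on the log2 scale (limma, adjusted p = 8.0e-05). The epithelial markers KRT8, KRT18, CDH1 and EPCAM were expressed in all groups. Of 8 markers of other cell types, 4 were tested in CWR22RV1 and 3 in DU145 cells, and PTPRC, CD3E and VWF, which define white blood cells, T cells and vessel cells, were below the filter in both. Their summed normalised count was between 189 and 207 in shControl and between 207 and 280 in GALNT7 KD libraries. In DU145 cells it was between 2900 and 3191 in OE control and between 1070 and 1242 in GALNT7 OE libraries. CD68, a macrophage marker that other cells also express, and COL1A1, a fibroblast collagen, fell there by 1.37 and 2.01 on the log2 scale. The other marker tested in DU145 cells had a log2 fold change of 1.08 that did not pass. The part of these markers in the results was not tested. In GALNT7 KD cells the 922 tested genes of chromosome 12 had a median log2 fold change of -0.28, beside -0.0063 over all genes, and none of the 10 genes lies on chromosome 12.

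Maintenance methylation was described first. DNMT1 (ENSG00000130816, chromosome 19, 10133345 to 10231286, GRCh38), the enzyme that copies methylation at replication forks, had normalised counts of 4004, 4411 and 3877 in the OE control libraries and of 6656, 7687 and 7566 in the GALNT7 OE libraries. The lowest GALNT7 OE library lay above the highest control library, and the log2 fold change was 0.83 ± 0.074 (SE; limma, adjusted p = 1.8e-04). UHRF1 (ENSG00000276043, chromosome 19, 4903080 to 4962154), which recognises half-methylated DNA and recruits DNMT1, had 1309, 1224 and 1202 normalised counts in OE control and 3621, 3220 and 3416 in GALNT7 OE libraries. Its rise of 2.75-fold was the largest of the 10 genes in each of the alternative fits, with a log2 fold change of 1.46 ± 0.064 (SE; limma, adjusted p = 9.8e-06).

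In CWR22RV1 cells both maintenance genes were slightly lower after knockdown, and neither passed the test. DNMT1 had 4551, 4879 and 4617 normalised counts in shControl libraries and 4368, 4375 and 4009 in GALNT7 KD libraries. The groups did not overlap, and the means of 4682 and 4251 gave a log2 fold change of -0.14 with a 95% interval of -0.27 to -0.010 (limma, adjusted p = 0.16). UHRF1 had 1963, 1880 and 2025 normalised counts in shControl and 1837, 1611 and 1833 in GALNT7 KD libraries. Here too the groups did not overlap, and the log2 fold change was -0.15 with an interval of -0.33 to 0.017 (limma, adjusted p = 0.23).

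The pair of de novo methyltransferases did not move together in DU145 cells. DNMT3B (ENSG00000088305, chromosome 20, 32762385 to 32809356) was scarce, with 86.9, 84.9 and 118 normalised counts in OE control libraries and 163, 184 and 157 in GALNT7 OE libraries. The groups did not overlap and DNMT3B rose by 0.81 ± 0.17 (SE) on the log2 scale (limma, adjusted p = 0.0072). DNMT3A (ENSG00000119772, chromosome 2, 25227855 to 25342590) had 949, 898 and 948 normalised counts in OE control and 893, 911 and 925 in GALNT7 OE libraries. The groups overlapped, and its log2 fold change of -0.034 had an interval of -0.18 to 0.11 (limma, adjusted p = 0.68).

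In CWR22RV1 cells DNMT3A had 971, 1101 and 971 normalised counts in shControl libraries and 1423, 1182 and 1187 in GALNT7 KD libraries. All 3 knockdown libraries were above all 3 controls, with a log2 fold change of 0.31 and an interval of 0.079 to 0.55, which missed the threshold by limma (adjusted p = 0.10) and by edgeR (adjusted p = 0.10) and passed it by DESeq2 (adjusted p = 0.040). DNMT3B had 307, 275 and 314 normalised counts in shControl and 233, 225 and 284 in GALNT7 KD libraries. One knockdown library lay within the control range, and the log2 fold change was -0.28 with an interval of -0.58 to 0.024 (limma, adjusted p = 0.22).

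**Figure D1:**
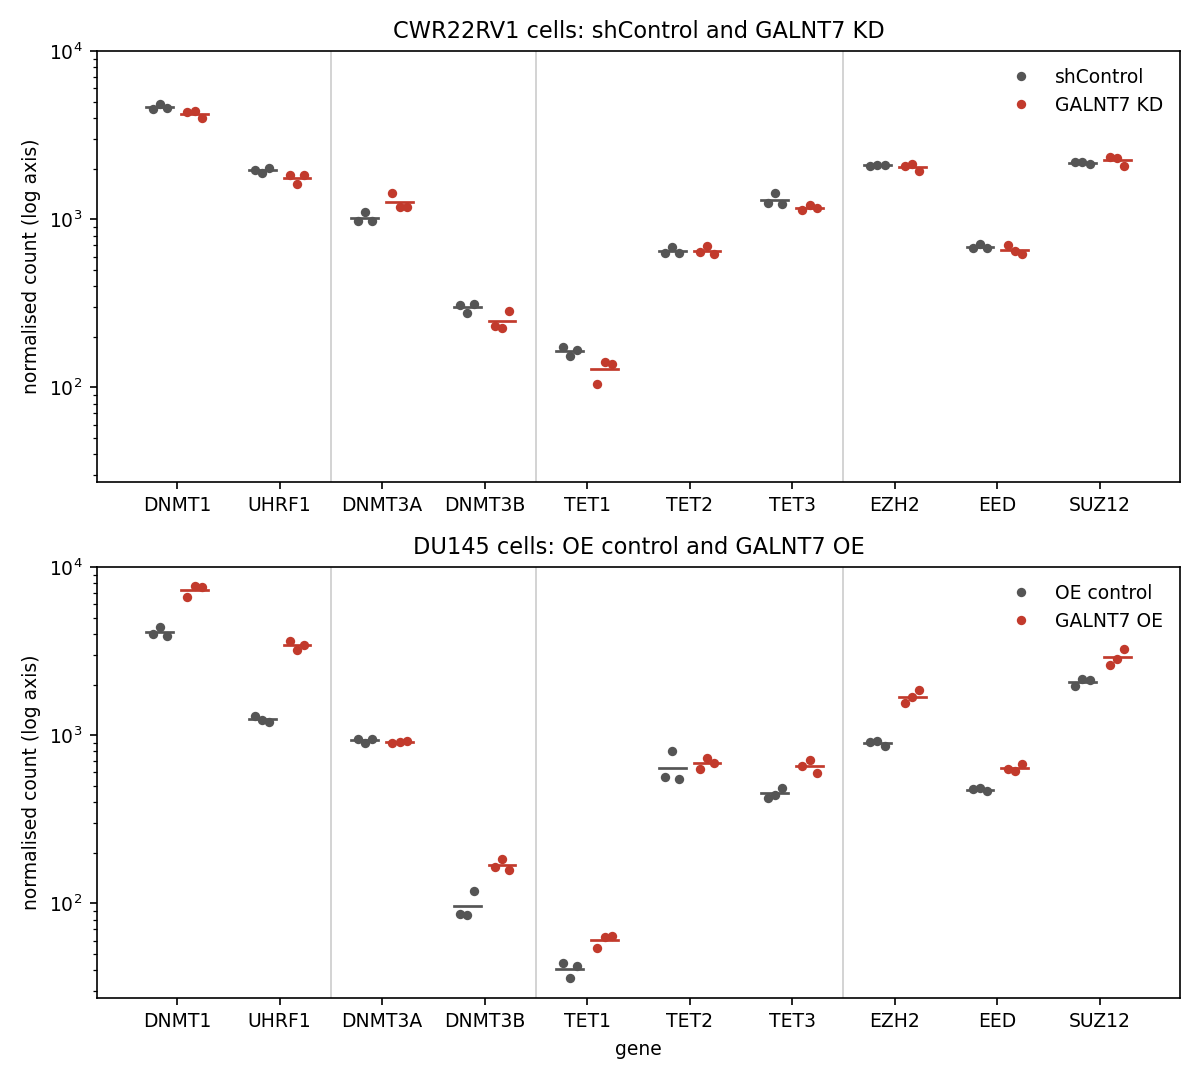
Normalised count (log axis) of the 10 genes in each library of CWR22RV1 cells (top) and DU145 cells (bottom), with a point for each of the 3 replicates and a bar at the mean, grey for the control and red for the GALNT7 KD or GALNT7 OE group. In DU145 cells the red points lie clear above the grey ones for 8 genes and mix with them for DNMT3A and TET2.

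The TET enzymes oxidise methylated cytosine, and TET3 was the member of the family with the lowest adjusted p in DU145 cells. TET3 (ENSG00000187605, chromosome 2, 73986404 to 74108176) had 422, 443 and 487 normalised counts in OE control and 654, 709 and 594 in GALNT7 OE libraries, without overlap, a log2 fold change of 0.53 ± 0.098 (SE; limma, adjusted p = 0.0046). TET1 (ENSG00000138336, chromosome 10, 68560656 to 68694482) was the scarcest of the 10 genes, with 43.9, 35.8 and 42.3 normalised counts in OE control and 54.1, 62.8 and 64.0 in GALNT7 OE libraries. The groups did not overlap, and the log2 fold change was 0.56 ± 0.18 (SE), close to the threshold (limma, adjusted p = 0.039). TET1 lost the call by DESeq2 (adjusted p = 0.14) and when any library but replicate 1 of GALNT7 OE was left out (limma, highest adjusted p = 0.11). TET2 (ENSG00000168769, chromosome 4, 105145875 to 105279816) had 564, 805 and 546 normalised counts in OE control and 625, 731 and 684 in GALNT7 OE libraries. The second control library was higher than all the others, and the log2 fold change of 0.11 had an interval of -0.26 to 0.49 (limma, adjusted p = 0.60).

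None of the TET genes passed the test in CWR22RV1 cells. TET1 had 173, 154 and 167 normalised counts in shControl and 104, 142 and 137 in GALNT7 KD libraries, all below the controls, with a log2 fold change of -0.37 and an interval of -0.74 to -0.0054 (limma, adjusted p = 0.19). TET3 had 1240, 1439 and 1226 normalised counts in shControl and 1135, 1211 and 1159 in GALNT7 KD libraries, again without overlap, with a log2 fold change of -0.15 (limma, adjusted p = 0.29). TET2 had 628, 683 and 627 normalised counts in shControl and 634, 695 and 620 in GALNT7 KD libraries. The means of 646 and 650 differed by less than the spread between replicates.

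The 3 core subunits of PRC2 rose together in DU145 cells, EZH2 more than its partners. EZH2 (ENSG00000106462, chromosome 7, 148807383 to 148884321), the catalytic subunit, had 906, 923 and 867 normalised counts in OE control and 1555, 1676 and 1853 in GALNT7 OE libraries. No library of one group reached the range of the other, and the log2 fold change was 0.91 ± 0.078 (SE; limma, adjusted p = 1.6e-04). EED (ENSG00000074266, chromosome 11, 86244544 to 86278813), which reads the mark that PRC2 makes, had 476, 484 and 463 normalised counts in OE control and 629, 615 and 672 in GALNT7 OE libraries, a log2 fold change of 0.43 ± 0.072 (SE; limma, adjusted p = 0.0032). SUZ12 (ENSG00000178691, chromosome 17, 31937018 to 32001045), the scaffold subunit, had 1958, 2162 and 2121 normalised counts in OE control and 2629, 2840 and 3239 in GALNT7 OE libraries, a log2 fold change of 0.48 ± 0.086 (SE; limma, adjusted p = 0.0042). SUZ12 shares sequence with a pseudogene, so the split of its reads is uncertain.

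In CWR22RV1 cells the groups overlapped for each of the PRC2 subunits. EZH2 had 2068, 2106 and 2114 normalised counts in shControl and 2075, 2137 and 1926 in GALNT7 KD libraries, a log2 fold change of -0.036 with an interval of -0.17 to 0.10 (limma, adjusted p = 0.75). EED had 673, 707 and 671 normalised counts in shControl and 700, 650 and 617 in GALNT7 KD libraries (log2 fold change -0.062, limma, adjusted p = 0.67). SUZ12 had 2192, 2192 and 2122 normalised counts in shControl and 2348, 2300 and 2082 in GALNT7 KD libraries (log2 fold change 0.047, limma, adjusted p = 0.69). The intervals leave room for changes in either direction, the widest of the 3 being that of EED, -0.25 to 0.13.

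**Figure D2:**
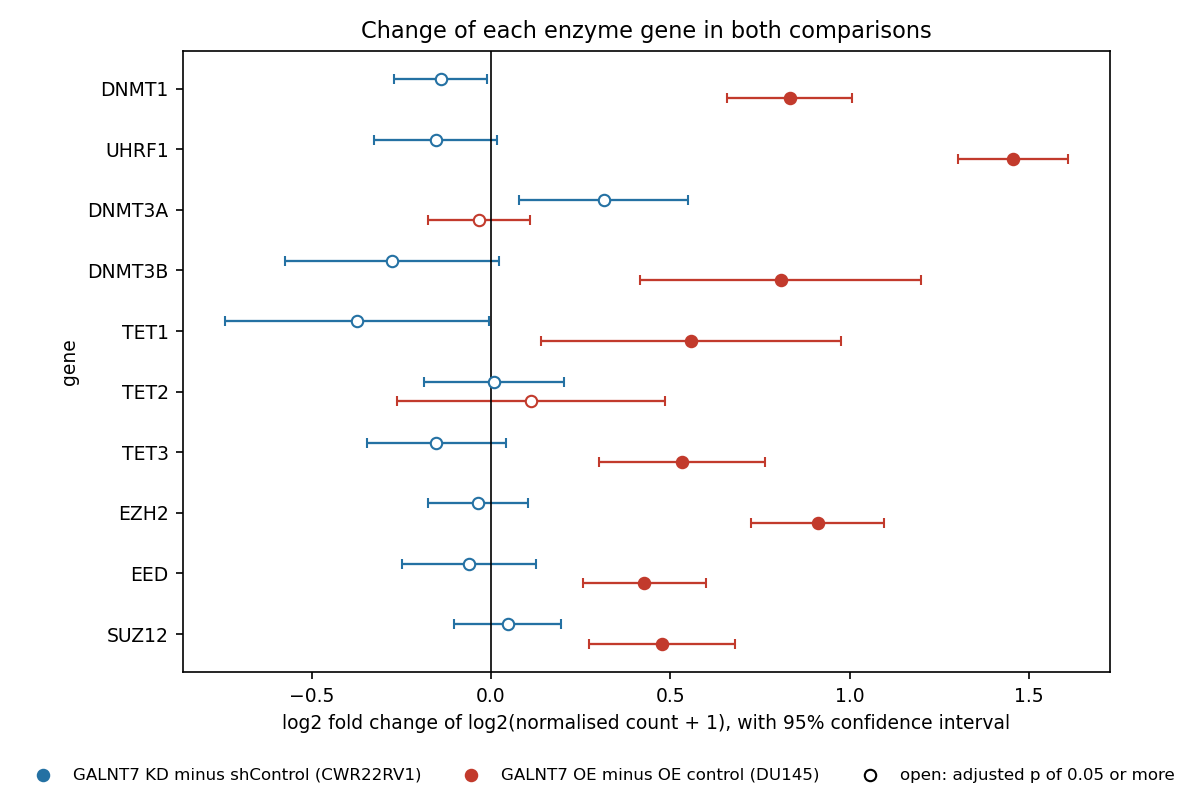
Log2 fold change of each of the 10 genes with its 95% confidence interval, blue for GALNT7 KD minus shControl in CWR22RV1 cells and red for GALNT7 OE minus OE control in DU145 cells, filled where the adjusted p was under 0.05. The red values run from -0.034 (DNMT3A) to 1.46 (UHRF1) and 8 are filled, and the blue values run from -0.37 (TET1) to 0.31 (DNMT3A) and all are open.

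Across the 10 genes the median log2 fold change was 0.55 in DU145 cells, beside -0.011 over all genes tested, and -0.10 in CWR22RV1 cells, beside -0.0063. In DU145 cells 8 of the 10 genes had groups that did not overlap, where 55.3% of all genes did. In CWR22RV1 cells 5 of the 10 (DNMT1, UHRF1, DNMT3A, TET1 and TET3) had groups that did not overlap, where 32.5% of all genes did. No gene was called in CWR22RV1 cells by limma or edgeR, DESeq2 called 1 (DNMT3A), and 3 had an unadjusted limma p under 0.05 (DNMT1, DNMT3A and TET1). The spread between replicates, as the coefficient of variation over 3 libraries, ran from 1.16% (EZH2) to 9.12% (TET3) in shControl and from 3.31% to 15.9% (TET1) in GALNT7 KD libraries. It ran from 2.16% (EED) to 22.6% (TET2) in OE control and from 1.77% (DNMT3A) to 10.7% (SUZ12) in GALNT7 OE libraries.

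Levels were compared between the genes after division by the length of their main transcript. In OE control cells DNMT1 was the most abundant, with 758 ± 51.6 (SD, n = 3) normalised counts per kb of transcript, followed by SUZ12 (463 ± 24.1), UHRF1 (385 ± 17.4), EZH2 (341 ± 10.8) and EED (213 ± 4.61). The order went on with DNMT3A (98.1 ± 3.07), TET2 (62.8 ± 14.2), TET3 (39.6 ± 2.90), DNMT3B (22.3 ± 4.27) and TET1 (4.38 ± 0.463), and no 2 neighbours in this order overlapped over the 3 libraries. In GALNT7 OE cells UHRF1 came second with 1059 ± 62.2 normalised counts per kb, behind DNMT1 with 1350 ± 104. SUZ12 (646 ± 69.0) and EZH2 (642 ± 56.8) then overlapped, as did TET2 (66.9 ± 5.20) and TET3 (57.3 ± 5.06).

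The order in CWR22RV1 cells put EZH2 higher. In shControl cells DNMT1 had 866 ± 32.0 normalised counts per kb, EZH2 794 ± 9.25, UHRF1 606 ± 22.6, SUZ12 483 ± 8.91 and EED 308 ± 9.17. TET3 (114 ± 10.4) and DNMT3A (107 ± 7.88) overlapped, and so did DNMT3B (68.9 ± 4.81) and TET2 (63.6 ± 3.17), above TET1 (17.7 ± 1.04). In GALNT7 KD cells DNMT3A (133 ± 14.5) lay above TET3 (103 ± 3.40) in every library, and DNMT1 (786 ± 38.7) overlapped EZH2 (775 ± 40.9), as UHRF1 (545 ± 40.1) did SUZ12 (499 ± 31.6) and TET2 (63.9 ± 3.93) did DNMT3B (57.1 ± 7.40). The tables of the cell lines were normalised separately, so levels were not compared between CWR22RV1 and DU145 cells.

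The balance between each of 3 members and its close relative was followed as a ratio of normalised counts within each library, and only the change of a ratio between groups was read, since the ratios are not divided by length. EZH1 is the other catalytic subunit of PRC2 and is known for its use in resting cells. In DU145 cells the ratio of EZH2 to EZH1 was 0.601, 0.791 and 0.692 in OE control and 1.66, 1.47 and 1.74 in GALNT7 OE libraries. The ratio rose in all 3 libraries past the control range, by 2.35-fold, while EZH1 alone had a log2 fold change of -0.32 that missed the threshold by limma (adjusted p = 0.063) and edgeR (adjusted p = 0.061) and passed it by DESeq2 (adjusted p = 0.032), with groups that did not overlap. In CWR22RV1 cells the same ratio was 3.25, 3.46 and 2.99 in shControl and 3.09, 4.16 and 2.76 in GALNT7 KD libraries, with overlapping groups.

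The ratio of DNMT3B to DNMT3A was 0.0925, 0.0955 and 0.125 in OE control and 0.184, 0.203 and 0.171 in GALNT7 OE libraries, 1.79-fold higher. In CWR22RV1 cells it was 0.317, 0.250 and 0.324 in shControl and 0.164, 0.191 and 0.240 in GALNT7 KD libraries, lower in every knockdown library, a log2 difference of -0.59. The ratio of UHRF1 to UHRF2, a relative of UHRF1 that does not replace it in maintenance methylation, was 1.33, 1.68 and 0.898 in OE control and 3.65, 2.62 and 3.16 in GALNT7 OE libraries, 2.47-fold higher. In CWR22RV1 cells it was 2.93, 3.22 and 2.68 in shControl and 2.16, 1.92 and 2.62 in GALNT7 KD libraries, a log2 difference of -0.40. In 5 of the 6 comparisons of a ratio the groups did not overlap, each with the two-sided exact permutation p = 0.1 and 0.12 after adjustment over the 6. The remaining one, EZH2 to EZH1 in CWR22RV1 cells, had an exact permutation p = 0.9, and 0.1 is the smallest p that 3 libraries against 3 allow, so none could pass 0.05.

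**Figure D3:**
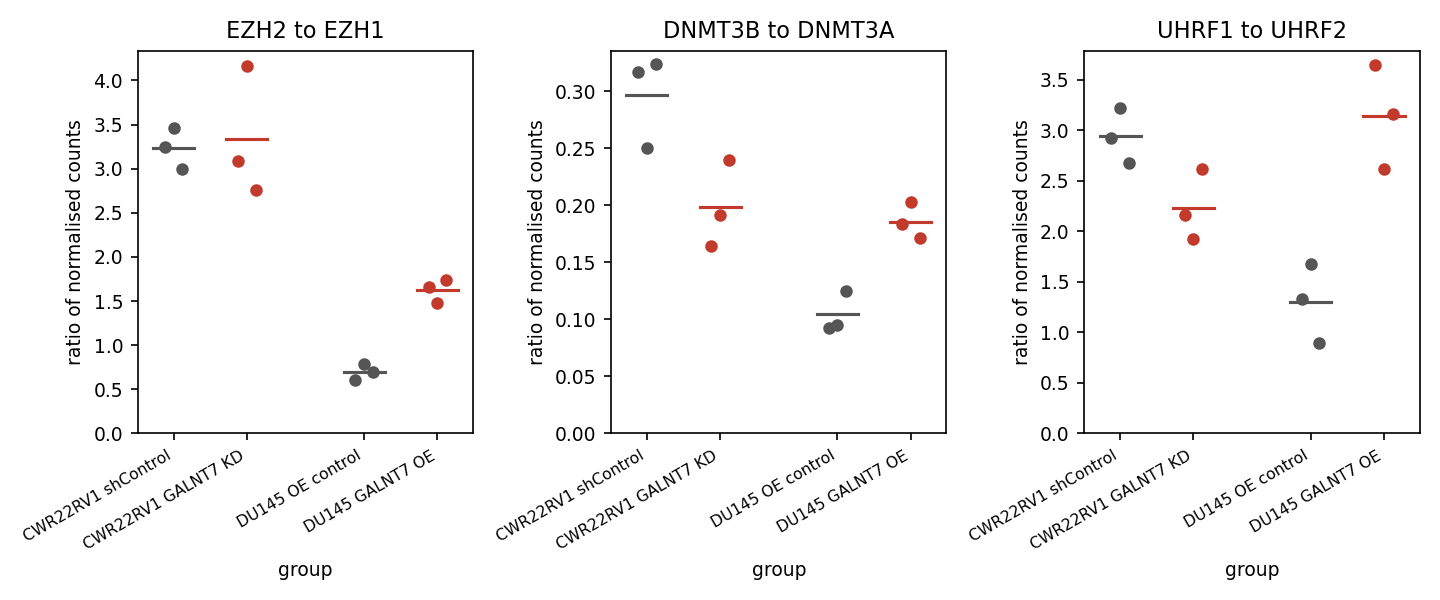
Ratio of normalised counts of EZH2 to EZH1, DNMT3B to DNMT3A and UHRF1 to UHRF2 in each library. A bar marks the mean of 3 replicates, grey for control and red for GALNT7 KD or GALNT7 OE groups. Ratios were not compared between the cell lines. The EZH2 to EZH1 ratio in DU145 cells goes from a mean of 0.695 to 1.62, and the DNMT3B to DNMT3A ratio from 0.297 to 0.199 in CWR22RV1 cells and from 0.104 to 0.186 in DU145 cells.

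The genes that work with these enzymes were taken from 7 lists with 75 genes, of which 73 were listed in the tables. In DU145 cells 68 of them were tested, and 31 were higher and 9 lower, 58.8% in all beside 43.5% of all genes. In CWR22RV1 cells 70 were tested, and 1 was higher and 5 lower, 8.57% beside 9.06% of all genes. Of all genes 5.28% were higher and 3.79% lower there. The count of 6 in CWR22RV1 cells fell to 0 without replicate 1 of shControl or without replicate 1 of GALNT7 KD, to 2 without replicate 3 of shControl, and to 3 without replicate 2 of either group.

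Among the partners of PRC2, 4 of the 8 tested genes rose and 1 fell in DU145 cells, 62.5% called beside 43.5% of all genes. None of 9 passed in CWR22RV1 cells, where 1 had an unadjusted limma p under 0.05, edgeR called none and DESeq2 called 1. PHF19, which guides PRC2 to its targets, had 1107, 1219 and 1105 normalised counts in OE control and 2586, 2628 and 2374 in GALNT7 OE libraries, a log2 fold change of 1.14 (limma, adjusted p = 3.2e-05). RBBP7, a histone-binding subunit, rose by 0.55 and AEBP2, a cofactor, by 0.40 on the log2 scale. JARID2, the cofactor found with AEBP2 in the other form of the complex from PHF19, fell by 0.42 on the log2 scale, from 1212 ± 33.3 to 904 ± 30.1 normalised counts (limma, adjusted p = 0.0015). PHF1 was listed at 0 in every library and gave no value.

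PRC1, the sister complex that marks histone H2A, had 6 higher and 2 lower genes of 19 in DU145 cells, 42.1% beside 43.5% of all genes, which is near the background. It had 3 lower genes of 19 in CWR22RV1 cells, 15.8% beside 3.79% of all genes. BMI1, a subunit of its catalytic core, was lower in each knockdown library (655, 731 and 629 normalised counts) than in the shControl libraries (1320, 1512 and 1058), a log2 fold change of -0.94 (limma, adjusted p = 0.011). In DU145 cells BMI1 was higher, from 3872 ± 119 to 6053 ± 351 normalised counts, a log2 fold change of 0.64 (limma, adjusted p = 1.5e-04). PCGF5, a relative of BMI1, had log2 fold changes of -0.35 in CWR22RV1 and 0.66 in DU145 cells, and both passed. KDM2B, which brings PRC1 to CpG islands and lies on chromosome 12, fell by 0.28 on the log2 scale in CWR22RV1 cells, where the median of that chromosome was lower by the value given above. The part of the chromosome in the result was not tested. Of the 6 enzymes and partners that remove Polycomb marks, 2 rose and none fell in DU145 cells, 33.3% called beside 43.5% of all genes. These were ASXL1 (0.61 on the log2 scale) and USP16 (0.58), and the demethylase KDM6A had a log2 fold change of 0.0033 that did not pass. In CWR22RV1 cells none of the 6 passed, beside 9.06% of all genes, and all 6 had negative log2 fold changes.

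Of the 9 tested partners of DNA methylation, 7 rose and none fell in DU145 cells, 77.8% higher beside 22.9% of all genes. LIG1, the ligase that seals new DNA and binds UHRF1 once methylated, went from 426 ± 49.1 to 999 ± 99.1 normalised counts, and PCNA, the clamp that tethers DNMT1, from 1463 ± 9.77 to 3008 ± 39.3. HELLS and CDCA7, which together open packed DNA for methylation, rose by 0.99 and 0.82 on the log2 scale. DNMT3L, the cofactor of de novo methylation in germ cells, was listed at 0 in every library. In CWR22RV1 cells LIG1 alone passed, with a log2 fold change of -0.32 (limma, adjusted p = 0.020), and 8 others did not. The share called was 11.1%, beside 9.06% of all genes.

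Genes that read methylated DNA moved in both directions in DU145 cells, with 3 higher and 1 lower of 8, so 4 of 8 were called beside 43.5% of all genes, which is near the background. MBD2 rose by 0.48 on the log2 scale, and ZBTB4, a zinc finger repressor that binds methylated CpG, fell by 0.59, from 3816 ± 71.2 to 2535 ± 88.7 normalised counts (limma, adjusted p = 1.1e-04). None of the 8 readers passed in CWR22RV1 cells, where 2 had an unadjusted limma p under 0.05 and edgeR and DESeq2 called none.

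Downstream of the TET enzymes, the list of repair glycosylases and of genes that supply or compete for the TET cofactor had 7 higher and 3 lower genes of 13 in DU145 cells. The share called was 76.9%, beside 43.5% of all genes. NEIL3 had 151, 180 and 174 normalised counts in OE control and 753, 695 and 793 in GALNT7 OE libraries, a log2 fold change of 2.14 (limma, adjusted p = 1.4e-05). NEIL1, a glycosylase of the same family, went the other way, with 301, 268 and 283 in OE control and 86.2, 54.5 and 113 in GALNT7 OE libraries, a log2 fold change of -1.79 (limma, adjusted p = 0.0015). NEIL2 rose by 1.00 on the log2 scale. CXXC5, a relative of the TET1 DNA-binding part, fell by 0.78, a call lost by edgeR and when any library but replicate 3 of GALNT7 OE was left out. In CWR22RV1 cells TDG, the glycosylase that removes oxidised methylcytosine, was lower in every knockdown library (2103, 2013 and 2198 normalised counts against 2828, 2683 and 2648 in shControl), a log2 fold change of -0.37 (limma, adjusted p = 0.013). TDG also lies on chromosome 12. IDH2, which makes the cofactor of TET enzymes in mitochondria, was the 1 higher gene there, by 0.28 on the log2 scale. IDH2 and KDM2B lost the call whichever library was left out. BMI1, PCGF5, LIG1 and TDG lost theirs in CWR22RV1 cells at least without replicate 1 of either group (limma, highest adjusted p = 0.071).

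Of the 5 tested genes for the supply of methyl groups, 2 were higher and 2 lower in DU145 cells, 80.0% called beside 43.5% of all genes. MAT2A and MAT2B, which make the methyl donor, each fell by 0.37 on the log2 scale, while AHCY and AHCYL1, the enzyme that clears the used donor and its relative, rose by 0.50 and 0.21. In CWR22RV1 cells none of 5 passed, beside 9.06% of all genes, with 1 unadjusted limma p under 0.05 and no call by edgeR or DESeq2.

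**Figure D4:**
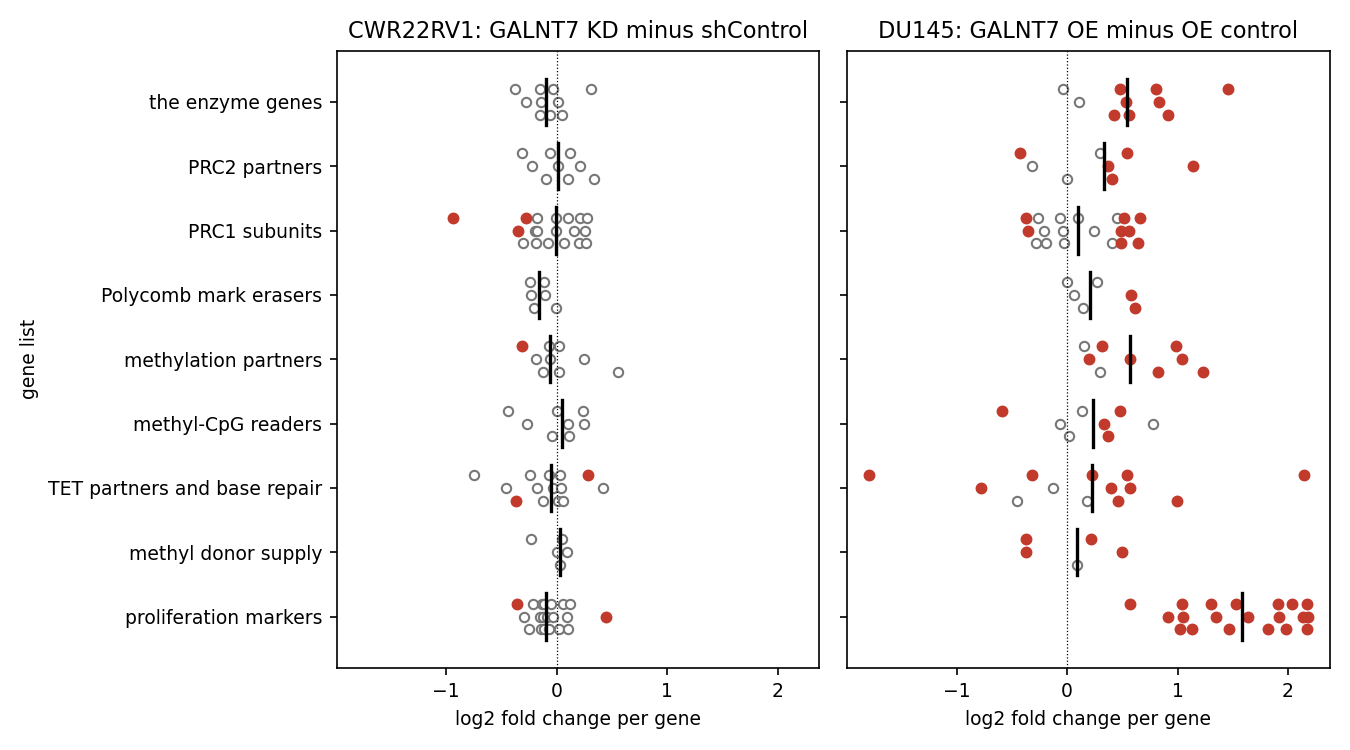
Log2 fold change of each tested gene in the list of the 10 enzyme genes, in the 7 lists of partner genes and in the proliferation markers, for CWR22RV1 cells (left) and DU145 cells (right), red where the adjusted p was under 0.05, with a black bar at the median of the list. In DU145 cells the medians lie at 0.55 for the enzyme genes, 0.57 for the methylation partners and 1.58 for the proliferation markers, and in CWR22RV1 cells at -0.10, -0.058 and -0.10.

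The proliferation markers moved with the enzyme genes in DU145 cells. All 20 markers rose there, where 22.9% of all genes did. Their log2 fold changes lay between 0.57 (MCM2) and 2.18 (PLK1), with a median of 1.58. Their summed normalised count was between 35242 and 35533 in OE control and between 97175 and 104429 in GALNT7 OE libraries. UHRF1 was within the range of the markers, with 8 of the 20 below it. EZH2, DNMT1 and DNMT3B each had 1 marker below them (MCM2), and TET1, TET2, TET3, EED, SUZ12 and DNMT3A had none. In CWR22RV1 cells 1 marker was higher (CCNE2, 0.45) and 1 lower (TYMS, -0.36), with a median of -0.10, and the summed normalised count was between 106306 and 112317 in shControl and between 102332 and 103996 in GALNT7 KD libraries. The list shares PCNA with the methylation partners. The part of proliferation in the change of the enzyme genes was not tested.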

How the data were processed

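RNA from 12 cultures was sequenced as stranded mRNA libraries. The authors deposited 1 table per cell line whose values are a signal per gene, normalised counts, and the submitters' processing notes name FastQC, Salmon, DESeq2, R 3.5.3 and hg38, without versions for the first 3. Whole reads were recovered by division by each library's step (100% of values whole within 0.001). Every column was assigned to a sample through its label.

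The genes were matched through GENCODE release 29 identifiers. Genes with a mean of at least 5 normalised counts over the 6 libraries were tested with limma 3.58.1 (R 4.3.3) on log2(normalised count + 1), without a replicate block, with a mean-dependent prior variance and Benjamini-Hochberg adjustment. Filtering left 17906 genes in CWR22RV1 and 18705 in DU145 cells. edgeR 4.0.16 and DESeq2 1.42.0 were run on recovered reads as alternatives, with other pseudocounts (0.5 and 5), filters, scalings, a threshold of 0.01 and each library left out. The fits were tested on simulated data. Replicate pairs differed beyond sampling noise, with a mean chi-square per gene of at least 8.97. The 10 genes and the lists were chosen with earlier results of these data known. All 10 were described, and from each list up to 4 called genes were named, those with the largest changes among genes with a mean of at least 50 and no overlap between groups. Any gene of a list of up to 10 could be named. EZH1, UHRF2, PHF1 and DNMT3L were named for the ratios or for values of 0. TIMP3 was named as a gene shared between lists, and MAGEA4 and MAGEA1 for their level. EPOP, RING1 and SSX4 were not analysed here. Counts were lowest, and precision least, for TET1 and DNMT3B.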

Additional observations from a re-analysis of the deposited data

How the results depend on the processing

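In DU145 cells the 8 calls among the 10 enzyme genes kept their direction under every alternative, and all but TET1 kept their call in each. TET1 lost its call with a filter of at least 1, without a filter, under 75th percentile scaling (log2 fold change 0.46), at a threshold of 0.01, with DESeq2 and with the replicate block (limma, adjusted p = 0.087). Leaving out libraries gave between 7 and 8 calls. In CWR22RV1 cells 1 of the 10 was called by DESeq2 (DNMT3A). TET2 there changed sign under 75th percentile (-0.014) and quantile scaling (-0.0018) and ran from -0.042 to 0.049 when libraries were left out, and EZH2 from -0.068 to 0.0064, none of them called. The log2 difference in the ratio of EZH2 to EZH1 between the CWR22RV1 groups ran from -0.15 to 0.15 when libraries were left out. The 75th percentile scaling moved the median of all genes in DU145 cells from -0.011 to -0.11. The calls in CWR22RV1 cells over all genes (1623) became 996 without the mean-dependent variance, 392 at 0.01, 2666 by DESeq2 and between 539 and 1336 without a library. The 6 calls among partner genes became 2, 0, 10 and between 0 and 7. In DU145 cells 8132 calls became 5303 at 0.01. The causes were not tested. Same-numbered libraries did not deviate together (correlations between -0.011 and 0.075 in CWR22RV1 and between 0.016 and 0.043 in DU145 cells), so the numbers were not taken as pairs. A replicate block gave 1002 calls over all genes and 3 among partner genes in CWR22RV1 cells.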

Other observations

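Genes known to be held silent by these enzymes were examined in 3 lists, chosen with earlier results known. Of 11 genes that EZH2 is known to silence in prostate cancer, 9 were tested in DU145 cells, and 5 were lower and 1 higher. The lower genes were 55.6% of those tested, beside 20.5% of all genes. CDKN1C, an inhibitor of the cell cycle, went from 194 ± 14.4 (SD, n = 3) to 35.3 ± 3.41 normalised counts, a log2 fold change of -2.43 (limma, adjusted p = 3.4e-05). TIMP2, an inhibitor of matrix proteases, went from 18729 ± 174 to 9076 ± 102, a log2 fold change of -1.05. The adhesion gene CDH1 (-0.58) and the transcription factor gene KLF2 (-0.60) were also lower. KLF2 lost its call when replicate 3 of GALNT7 OE or any control library was left out. The median log2 fold change of the 9 was -0.58, beside -0.011 over all genes. In CWR22RV1 cells 10 of the list were tested, and 1 was higher and 1 lower, where 5.28% of all genes were higher and 3.79% lower. The lower gene was PEBP1 (-0.21), which lies on chromosome 12. The most negative log2 fold change of the list, -1.61 in a scarce gene, did not pass (limma, adjusted p = 0.052). By edgeR that gene passed (adjusted p = 0.049). The higher gene was TIMP3 (1.23), scarce at means of 16.7 normalised counts in shControl and 40.9 in GALNT7 KD libraries. TIMP3 lost the call whichever library was left out, and it is also on the list of promoter-methylated genes below. Groups did not overlap for 8 of the 10 genes, where 32.5% of all genes did not, and the median log2 fold change was -0.14. The part of EZH2 in the change of these genes was not tested.

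Of 16 genes whose promoters are known to be methylated in prostate cancer, 3 were higher and 2 lower of 10 tested in DU145 cells, so 5 of 10 were called beside 43.5% of all genes, which is near the background. GSTP1, a detoxifying enzyme gene, went from 1030 ± 73.0 to 1667 ± 134 normalised counts, a log2 fold change of 0.69 (limma, adjusted p = 6.8e-04), and APC, a brake on Wnt signalling, rose by 0.65 on the log2 scale. SFRP1, a Wnt antagonist, went from 1388 ± 57.8 to 713 ± 21.7, a log2 fold change of -0.96, and AOX1, an oxidase gene, had a log2 fold change of -1.47. The median of the 10 was -0.0052. In CWR22RV1 cells 2 of 9 were higher and none lower, 22.2% higher beside 5.28% of all genes. PTGS2, a prostaglandin enzyme gene, was the larger in level, from 241 ± 17.5 to 380 ± 27.5 normalised counts, a log2 fold change of 0.66 (limma, adjusted p = 0.015). It lost its call without replicate 1 or 3 of shControl or replicate 1 of GALNT7 KD.

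Of 30 germline genes that methylation is known to keep silent, 13 were tested in CWR22RV1 cells and 3 in DU145 cells. In CWR22RV1 cells 2 of the 13 were higher, 15.4% beside 5.28% of all genes. In DU145 cells 2 of the 3 were higher, 66.7% beside 22.9%, and the other had a log2 fold change of -0.88 that did not pass. Not all were silent in shControl cells, where MAGEA4 (5007), MAGEA1 (2659) and MAGEA12 (917) had high mean normalised counts. In CWR22RV1 cells 17 of the list were below the filter, and in DU145 cells 27. TEX15, a gene of meiosis, was higher in both comparisons, with log2 fold changes of 0.74 in CWR22RV1 cells (limma, adjusted p = 0.0081) and 0.41 in DU145 cells (limma, adjusted p = 0.036). In DU145 cells its call was lost without replicate 1 or 2 of OE control or replicate 2 or 3 of GALNT7 OE. BRDT rose by 0.39 in DU145 cells. MAGEA12 rose by 0.29 in CWR22RV1 cells, and it lost the call whichever library was left out and shares sequence with other MAGEA genes. Markers of other cell types were listed as well. Of the 3 tested in DU145 cells, CD68 (-1.37) and COL1A1 (-2.01) were lower on the log2 scale, and the other (1.08) did not pass. None of 4 passed in CWR22RV1 cells, where 2 had an unadjusted limma p under 0.05 and edgeR and DESeq2 called none.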
